A study of Bos taurus with 12 samples.

Results

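MicroRNA gene promoters are described here as they appear in a table of methylation differences between the blood DNA of subfertile and fertile dairy cows. A promoter site is a cytosine that the deposited annotation calls "Promoter", which reaches 3 kb to either side of a gene's start, for a gene whose symbol begins with MIR and a number, on a numbered autosome. The rule found 327 sites in 148 microRNA genes, out of 5,086 genes with a promoter site and 216,990 deposited sites in all. MicroRNAs are short RNAs that guide Argonaute proteins to messenger RNAs and lower their translation or stability. Each is cut from a hairpin in a longer primary transcript, first by DROSHA in the nucleus and then by DICER1 in the cytoplasm. Many microRNA genes lie inside the introns of other genes, so the annotated start of a microRNA gene is usually the hairpin's first base and need not be where its transcription begins.

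The blood came from 12 dairy cows, 3 to 8 years of age, of 1 farm and 1 husbandry, and DNA was extracted from 1 mL per cow. The 6 subfertile cows were culled in the year after sampling for reproductive trouble that nobody had noticed at the draw. The 6 fertile cows were kept and had no known fertility problem. Cows were separate animals, no treatment or genotype is named beyond this grouping, and the labels give the cell type only as blood, so a shift in the mix of blood cells and a change within cells cannot be told apart. The column names mark the subfertile cows with F and the fertile cows with R. The letters are not explained, the labels were followed, and every direction would turn if the letters were meant otherwise.

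Every deposited site had been selected by the authors on these same cows, with an absolute difference above 25 percentage points and a q-value below 0.01 in the authors' deposited table. The existence of a group difference at a promoter is therefore not a finding. P-values below set each difference against the spread among cows. They were computed at sites picked for that difference and are no independent evidence of it. Levels are the percent of methylated calls, averaged over a gene's promoter sites in each cow and given as mean ± SD with the subfertile group named first. Each group has n = 6 except where a smaller n is printed. Values were missing for 1.76% of cow and site pairs at microRNA promoters against 1.72% in the whole table, and from 0.669 to 4.88% by cow. All 148 genes were matched to a RefSeq microRNA gene. No microRNA sequence is printed, and no expression was measured.

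Of the 148 microRNA genes, 76 had a higher mean in subfertile cows and 72 a lower mean. The share higher was 51.4%, and among all genes with a promoter site it was 51.9%. The median size of the difference was 30.1 percentage points for microRNA genes and 30.4 points for all promoter genes. Among microRNA genes with a higher mean, the median level was 81.9% in subfertile and 48.0% in fertile cows. Among those with a lower mean, it was 44.0% and 72.7%. Averaged over all 148 genes, the cows' levels ran from 56.2 to 64.6% in the subfertile and from 55.9 to 60.5% in the fertile group (60.5 ± 3.01% and 58.3 ± 1.86%), so the groups overlapped.

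None of the 121 microRNA genes with a value in all cows passed limma at an adjusted p of 0.05, while 56 had an unadjusted p under 0.05 (46.3%). Over all 4,405 promoter genes tested, 0.0908% passed (0.0681% as higher in subfertile cows) and 47.8% had an unadjusted p under 0.05. The other 27 microRNA genes lacked a value in at least 1 cow and were not tested. The smallest limma adjusted p among microRNA genes was 0.0795. The adjustment gave this same value to genes whose unadjusted limma p ran from 0.000394 (MIR2408) to 0.0126 (MIR379). Of single microRNA promoter sites, 0 of 327 passed limma over all deposited sites, where 0% of sites passed, and 153 had an unadjusted p under 0.05 (46.8%, against 52.7% of all sites). Groups did not overlap at 10 of these sites (3.06%, against 3.48% of all promoter sites), which lay in MIR92A-1, MIR133A-1, MIR2285BL, MIR2288, MIR2401, MIR2436, MIR129-1, MIR379, MIR2285O-5 and MIR1843. The plot of ranked differences shows few genes near 0, as the authors' selection of sites implies.

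**Figure D1:**
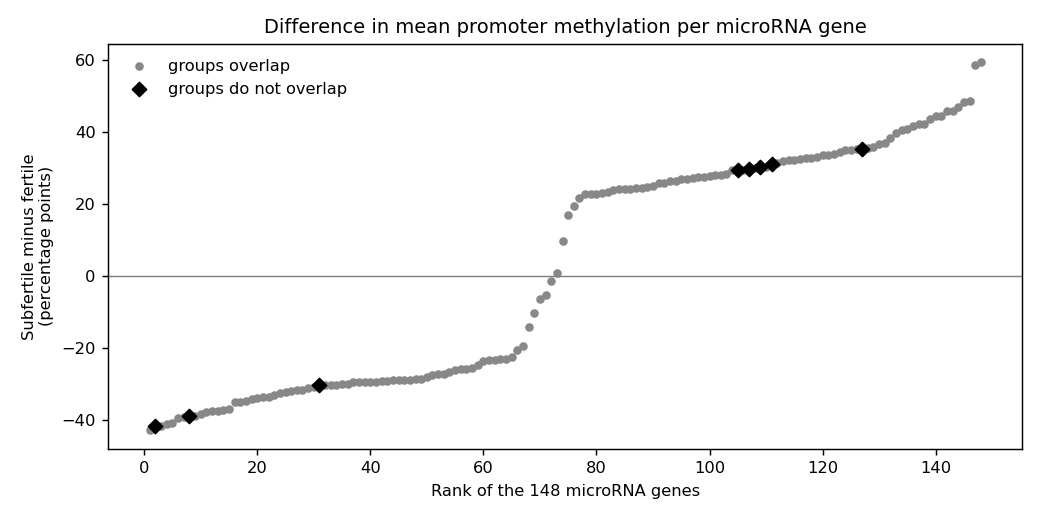
Difference in mean promoter methylation (subfertile minus fertile, percentage points) for each of the 148 microRNA genes, in rank order; diamonds mark the 8 genes whose groups do not overlap. Differences ran from -42.8 to 59.3 points, and the diamonds are not at the upper end of the ranking.

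In 8 of the 148 microRNA genes no subfertile cow overlapped a fertile cow (5.41%, against 3.89% of all promoter genes). In 5 the subfertile cows were higher (2.14% of all promoter genes were) and in 3 lower (1.75%). Leaving out 1 cow at a time gave counts from 8 to 13, and dropping a cow cannot lower this count. The share over all promoter genes was not taken under those settings. MIR92A-1 belongs to the miR-17-92 cluster, whose microRNAs are known for promoting the growth of lymphocytes. Its gene lies on chromosome 12 from 65,690,103 to 65,690,209, and its 1 site at 65,690,802 lies 699 bases past the start. Subfertile cows had a lowest value of 71.4%, a median of 85.0% and a highest of 94.4%. Fertile cows had 40, 55.4 and 64.3%. The means were 84.5 ± 7.93% and 54.2 ± 8.66% (log2 ratio difference 1.99, SE 0.59; limma adjusted p 0.0795), and both groups were tight around them. No cow was at 0 or 100% at this site, where values ran from 40 to 94.4%.

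MIR2436 on chromosome 5 had 2 sites, with 42.3, 65.6 and 79.1% as the lowest, median and highest subfertile values and 5, 30.8 and 38.6% as the fertile ones. The gap between the groups was thus narrow, between 38.6 and 42.3%. MIR2285BL, inside the calcium channel gene RYR2 on chromosome 28, had 5 sites with 81.7, 93.3 and 97.3% against 31.7, 61.7 and 80.2%. MIR2299, inside the glycosyltransferase gene B3GLCT on chromosome 12, had 6 sites over which the subfertile cows kept within 94.4 and 99.1%. Its fertile cows spread from 36.6 to 92.2%, with 3 of them near 90% and 3 near or below 50%. MIR2288, inside CPNE4 on chromosome 1, had 1 site with 83.3, 92.3 and 100% (n = 5) against 50, 65.2 and 71.4%. In these genes, as in MIR92A-1, every subfertile cow was above 70% and the fertile cows were spread below, except that both groups of MIR2436 were at lower levels.

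Lower in subfertile cows without overlap were MIR2401, MIR2346 and MIR133A-1. MIR2401 lies inside NGLY1, the gene of a glycan-removing enzyme, on chromosome 27. Its 3 sites gave 27.8, 56.4 and 75.4% in subfertile and 79.3, 87.0 and 93.3% in fertile cows. MIR2346, on chromosome 19 inside ASPSCR1, had 4 sites with 33.6, 43.7 and 50% against 50.6, 95.9 and 100%, so the groups were less than 1 point apart. All subfertile cows of MIR2346 lay at or below 50%, whereas 4 fertile cows were above 90% and the other two near 50%. MIR133A-1 makes a microRNA of heart and skeletal muscle. Its 1 site, on chromosome 13 at 54,737,268, gave 0, 26.7 and 35.7% (n = 5) against 42.9, 70.3 and 88.9%.

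**Figure D2:**
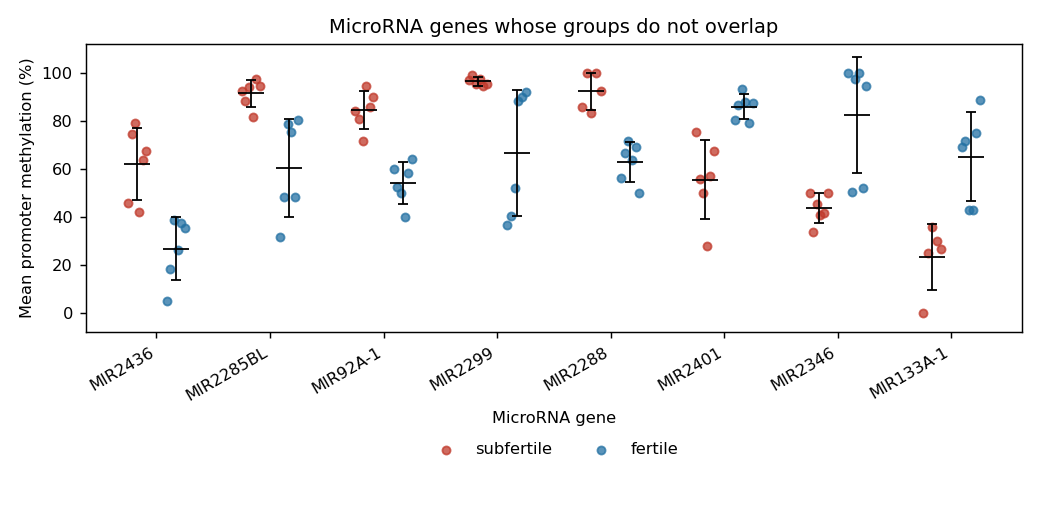
Mean promoter methylation (%) of each cow for the 8 microRNA genes whose groups do not overlap; points are cows, bars show mean ± SD. MIR92A-1 has 84.5% in subfertile and 54.2% in fertile cows, and the lower genes are at the right.

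The largest differences between group means lay in genes whose cows varied more. MIR2370 had 2 sites 869 and 870 bases from the start, the 2 strands of 1 CpG. Its subfertile cows gave 45.6, 89.0 and 97.5% and its fertile cows 0, 21.7 and 51.5%, a difference of 59.3 points (log2 ratio difference 4.57, SE 1.06; limma adjusted p 0.0795). Only subfertile cow 2, at 45.6%, lay within the fertile range. MIR2358, inside RCC2 on chromosome 2, had 1 site with 44.4, 50 and 100% (n = 5) against 5 fertile cows at 0 and 1 at 45.5%. MIR2408 lies inside PC, which encodes pyruvate carboxylase, on chromosome 29 (44,875,074 to 44,875,134). At its 2 sites, which lie on adjacent bases, every fertile cow was listed at 0. The subfertile cows gave 0, 50.5 and 63.6%, with subfertile cow 4 as the only one at 0. Without that cow MIR2408 passed limma (adjusted p 0.00738), at a difference of 53.4 points, in a fit where 0.318% of all promoter genes passed. Leaving that cow out removes the only overlap between the groups, so this pass is no added support.

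Next among the genes with a higher mean in subfertile cows came MIR2285AP (87.0 ± 18.4% against 38.4 ± 39.7%) and MIR2406, inside the kinase gene MARK2 (65.2 ± 24.6% against 16.8 ± 26.1% over 4 sites). MIR2284F, inside the ion exchanger gene SLC24A4, had 71.9 ± 28.3% against 24.9 ± 27.3% over 4 sites. MIR12044 lies inside ELF1, a transcription factor gene active in lymphocytes, and had 88.1 ± 23.7% against 42.2 ± 32.5%. MIR1296, inside JMJD1C, had 78.9 ± 11.5% against 33.1 ± 41.1%, MIR12062, inside CYFIP1, 61.4 ± 37.6% against 17.1 ± 26.6%, and MIR4680, inside PDCD4, 56.3 ± 39.3% against 12.7 ± 20.6%. In each of these, at least 1 fertile cow lay within the subfertile range, and the SDs within groups ran from 11.5 to 41.1 points.

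The most negative difference was that of MIR490, inside the muscarinic receptor gene CHRM2 on chromosome 4, with 25.6 ± 25.3% against 68.4 ± 24.9% at 1 site. Subfertile cows gave 0, 28.2 and 68.8% there, and fertile cows 38.1, 72.8 and 100%. MIR8550 had 21.5 ± 37.1% against 62.9 ± 26.5% over 2 sites on adjacent bases, with 4 subfertile cows at 0. MIR30A makes a microRNA found in many tissues. At its 1 site, at position -2,874 relative to the start, 5 subfertile cows were listed at 0 and 1 at 35.7%, while the fertile cows gave 0, 51.7 and 100%. MIR2285AO-1 had 40.8 ± 44.4% against 81.7 ± 17.1% over 5 sites, MIR6501 47.6 ± 26.7% (n = 5) against 86.9 ± 21.5%, and MIR2453 22.5 ± 39.2% against 61.5 ± 38.1%. The remaining 90 genes not covered by the naming rule held 1 site (62 genes) or 2 sites (28 genes). In 43 of them the subfertile mean was higher, by 1.02 to 42.4 points, and in 47 it was lower, by a median of -28.9 points.

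Genes with several promoter sites show whether their deposited sites went the same way. Cytosines without a difference are absent by the authors' selection, so agreement among sites cannot show that a difference held along the region. Of the 148 genes, 79 had 1 site, 35 had 2 and 34 had at least 3, and these 34 held 178 of the 327 sites. MIR2467, inside SH3RF1 on chromosome 8, had the most, with 17 sites from 1,308,814 to 1,312,402. All 17 were lower in subfertile cows, whose gene means were 39.9, 43.1 and 89.6% against 49.0, 89.3 and 93.2% in fertile cows. In each group 1 cow stood with the other group, namely subfertile cow 1 at 89.6% and fertile cow 3 at 49.0%. Within 10 kb of its start, 12 further deposited sites outside its promoter rows were also all lower.

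MIR129-1 makes a microRNA best known from the brain and lies on chromosome 4 from 92,407,937 to 92,408,020. Its 10 sites ran from position -933 to position 2,323 relative to the start, and 9 of them were lower in subfertile cows. Gene means were 10, 45.4 and 52.6% against 39.3, 81.7 and 90.1%. The site farthest past the start, at 92,410,260, had the largest authors' deposited difference among all microRNA promoter sites, 64.3 points in size, with 28.7 ± 18.3% (n = 5) against 88.9 ± 17.2% and no overlap. The other strand of that CpG, at 92,410,259, had a deposited difference of -36.5 points, with 37.6 ± 24.7% against 78.9 ± 27.1%. The groups overlapped there. The 1 site in the other direction, 282 bases past the start, had 92.1 ± 16.0% against 56.1 ± 42.1%. Its neighbour 598 bases past the start was lower, so the direction turned between adjacent sites.

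**Figure D3:**
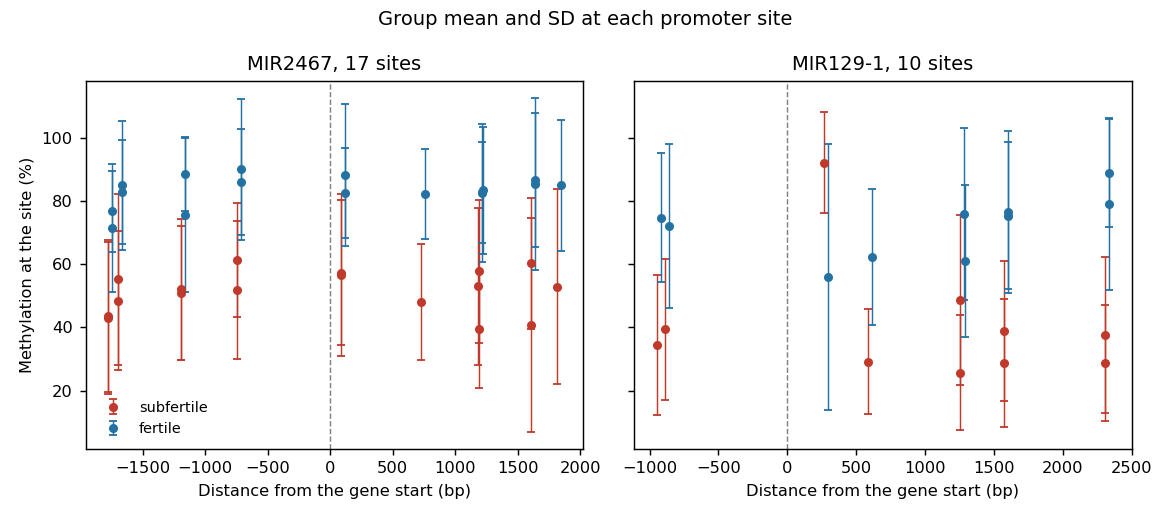
Methylation (%) at each promoter site of MIR2467 (17 sites) and MIR129-1 (10 sites) by distance from the gene start in bases; points and bars are group means ± SD, set slightly apart sideways. Fertile means lie above subfertile means at every MIR2467 site and at 9 of the 10 MIR129-1 sites.

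MIR2454 lies inside DNMT1, the gene of the enzyme that copies methylation to new DNA strands, on chromosome 7. All 9 of its sites were higher in subfertile cows, whose gene means were 46.5, 96.7 and 99.3% against 0, 48.5 and 96.3%. Only subfertile cow 4, at 46.5%, lay below 90%. Another 11 deposited sites within 10 kb were higher too. MIR2285G-1 lies inside NLRC5, the regulator of MHC class I genes, on chromosome 18, and its 8 sites gave 1.04, 51.7 and 97.0% against 0, 0 and 59.5%. MIR2285AX-3, inside SPATA7, had 9 sites all higher in subfertile cows, yet cows of both groups ranged from 0 to over 97% (63.7 ± 40.2% against 28.8 ± 38.4%). MIR2296, inside SPTBN1, had 69.5 ± 25.7% against 29.7 ± 36.4% over 7 sites. MIR11994 had 48.3 ± 29.1% against 21.1 ± 11.5% over 8 sites, where 3 subfertile and 3 fertile cows lay at or near 25%. That level averages unlike sites. These cows had 88.9 to 100% at 56,113,124 and 56,113,125 and were listed at 0 at the other sites. Without subfertile cow 5 the difference of MIR11994 was 17.5 points.

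Further genes of at least 3 sites with a higher mean in subfertile cows were MIR584-5 (67.0 ± 22.7% against 24.7 ± 27.6%), MIR10181 (69.4 ± 21.9% against 33.9 ± 40.2%), MIR708 inside TENM4 (65.5 ± 32.5% against 31.0 ± 31.6%) and MIR1287 (91.0 ± 7.67% against 58.6 ± 27.5%). MIR2284S had 84.8 ± 21.3% against 55.2 ± 24.6%, MIR2416 86.6 ± 13.4% against 59.1 ± 27.7%, and MIR10175, inside the prostaglandin synthase gene PTGS1, 79.2 ± 19.1% against 54.1 ± 36.8%. With a lower mean were MIR759 (32.9 ± 28.8% against 67.7 ± 21.3%), MIR2351 inside the integrin gene ITGAV (57.9 ± 19.4% against 92.5 ± 11.1%) and MIR2285O-5 (50.1 ± 36.7% against 83.5 ± 17.9%). MIR2285B-1 had 57.3 ± 38.0% against 86.7 ± 20.7%, MIR2301 58.9 ± 24.0% against 88.2 ± 11.4%, MIR2285O-4 62.0 ± 25.1% against 91.3 ± 2.51%, and MIR7864 46.7 ± 13.7% against 69.0 ± 13.7%. The difference of MIR10175 was 14.3 points without fertile cow 4, and that of MIR2285B-1 was -18.0 points without subfertile cow 6. When only genes of at least 3 sites were fitted and adjusted, 7 of the 34 passed limma, against 15.7% of all 1,292 such genes. These were MIR2285BL, MIR2401, MIR2346, MIR2351, MIR2406, MIR2299 and MIR2284F, with limma adjusted p from 0.0386 to 0.0475.

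In 10 of the 69 genes of at least 2 sites, sites differed in direction. Means over such genes say little: MIR2297 (1.02 points) and MIR340 (-1.46 points) each had 1 higher and 1 lower site, as had MIR2285J-2 (-6.44 points). MIR544B-1 had 59.7 ± 21.6% against 65.0 ± 10.7%, MIR6532 59.6 ± 23.4% against 69.9 ± 19.2% and MIR2369 46.1 ± 13.1% against 36.2 ± 7.32%. Leaving out single cows moved the difference of MIR544B-1 between -12.1 and -0.297 points, that of MIR6532 between -16.4 and -4.28 points and that of MIR2369 between 6.15 and 12.3 points. MIR11979 had 58.1 ± 16.2% against 41.0 ± 8.44%, with 3 sites higher and 1 lower. The direction of MIR2369 turned when the strands of a CpG were averaged first (-3.97 points), and those of MIR11979 and MIR544B-1 depended on which sites were kept.

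A run of microRNA genes on chromosome 21 lies in the imprinted DLK1-DIO3 region, whose noncoding RNAs are transcribed from the maternal copy and whose microRNAs are abundant in placenta and brain. MIR379, the only one of these on a list used here, lies from 65,912,508 to 65,912,593. Its 2 sites lie on adjacent bases. They gave 0, 39.1 and 47.7% in subfertile and 47.3, 69.6 and 95.5% in fertile cows (log2 ratio difference -2.68, SE 0.94; limma adjusted p 0.0795). The groups overlapped by less than 1 point there. MIR411B, 2,988 bases farther on, had 0, 45.0 and 87.5% against 66.7, 86.6 and 100%. MIR370, inside the noncoding RNA gene MEG8, had 0, 40.5 and 46.7% against 37.7, 74.0 and 100%. MIR544A had 44.1 ± 22.6% against 69.7 ± 22.3% (n = 5), and MIR10172, inside the neighbouring BEGAIN, 28.9 ± 44.2% (n = 5) against 65.9 ± 36.7%.

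MIR154C, between MIR411B and MIR544A, went the other way with 38.5, 63.3 and 100% against 0, 40.6 and 60%. The same cows stood apart at these neighbours. Subfertile cow 5 was listed at 0 in MIR370, MIR379, MIR411B and MIR544A and at 100% in MIR154C. Fertile cows 2 and 4 were above 85% in those 4 genes and at 0 in MIR154C. The genes of this run share cows and lie close together, so they are not separate results, and all but MIR379 and MIR411B were picked for their position after the values were seen.

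**Figure D4:**
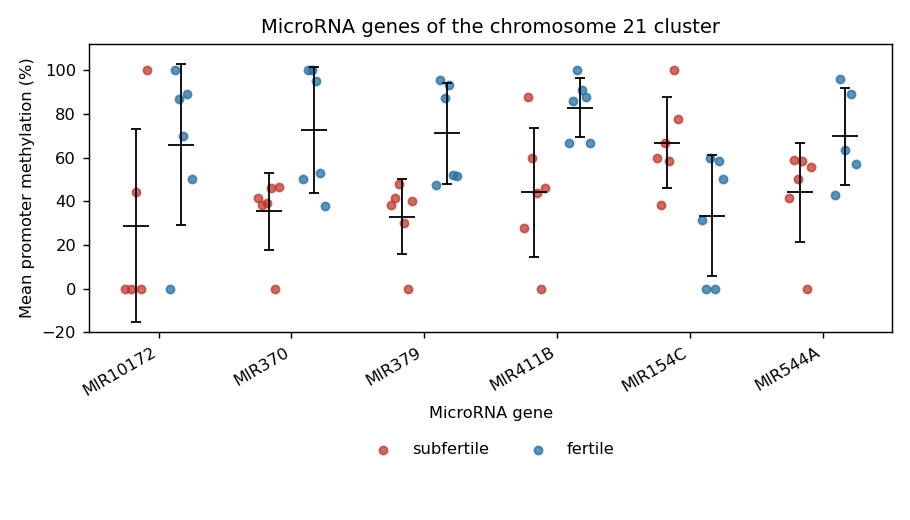
Mean promoter methylation (%) of each cow for 6 microRNA genes of the chromosome 21 run, in genome order; points are cows, bars show mean ± SD. Subfertile cows are lower on average in all but MIR154C, where they have 66.9% against 33.3%.

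Many cattle microRNAs belong to the families MIR2284 and MIR2285, which have many similar copies in the bovine genome and few known functions. How reads of such copies were placed is not known here. MIR2285 gave 25 genes with 61 sites, of which 7 genes had a higher and 18 a lower mean in subfertile cows, with a median difference of -27.1 points. MIR2284 gave 10 genes, 6 higher and 4 lower, with a median of 22.9 points. The other 37 genes of the number range first used for cattle had 25 higher and 12 lower, with a median of 25.8 points, and the remaining 76 genes had 38 in each direction. Over all promoter genes the median was 4.51 points. Differences between these series were not tested. MIR2285 genes with lower means included MIR2285O-2, inside the blood progenitor receptor gene FLT3, where every subfertile cow was listed at 0 and the fertile cows gave 0, 0 and 94.1% (n = 5). Those with higher means included MIR2285AP, MIR2285C (77.8 ± 28.3%, n = 5, against 37.3 ± 30.3%) and MIR2285BL. Median sizes of the difference were alike, at 29.3 points for MIR2284 and 29.5 points for MIR2285.

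**Figure D5:**
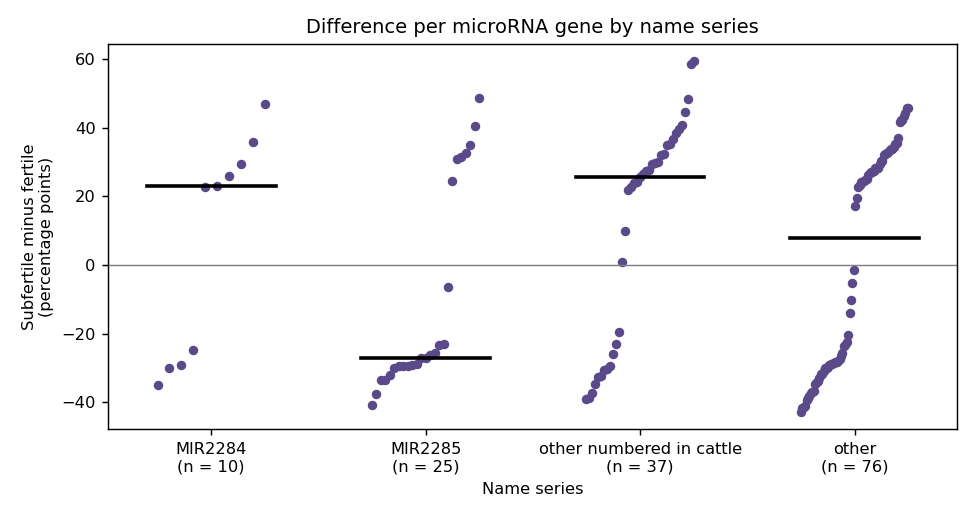
Difference (subfertile minus fertile, percentage points) of each microRNA gene in 4 name series; points are genes, the thick line is the median. MIR2285 has 18 of its 25 genes below 0, and the other genes numbered in cattle have 25 of 37 above 0.

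Of 61 listed microRNAs of white and red blood cells, 5 had a promoter site, 4 with a higher and 1 with a lower mean in subfertile cows, and none passed limma (2 of the 4 tested had an unadjusted p under 0.05, beside 47.8% of all promoter genes). Besides MIR92A-1 and MIR30A, these were MIR451, MIR486 and MIR181A-1, each with 1 site. MIR451 makes a red cell microRNA that is cut by AGO2 without DICER1. It had 81.8, 97.1 and 100% against 16.7, 75 and 100%, with 3 fertile cows fully methylated. MIR486, another red cell microRNA gene, lies inside the membrane skeleton gene ANK1 and had 94.3 ± 6.03% (n = 5) against 62.1 ± 39.1%. MIR181A-1 makes a microRNA of developing lymphocytes and had 92.4 ± 16.0% against 65.3 ± 36.0%. In all 3 the fertile cows were more widely spread than the subfertile cows, and the groups overlapped. Single cows weighed on them: without fertile cow 4 the difference of MIR486 was 19.7 points, and without fertile cow 2 that of MIR451 was 18.2 points. No gene of the MIRLET7 family had a promoter site among the members.

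Of 39 listed microRNAs of ovary, endometrium and placenta, 2 had a site, both with a lower mean, MIR379 and MIR199A-2. The latter lies inside DNM2, belongs to a microRNA family of mesenchymal tissues, and had 25.5 ± 43.3% (n = 5) against 55.3 ± 37.6%. Its difference was -29.8 points with all cows and -48.4 points without subfertile cow 4. Of 49 listed microRNAs of nerve, muscle and other tissues, 5 had a site, 1 with a higher and 4 with a lower mean. MIR204, inside TRPM3 and known from the eye, had 0, 15.4 and 40% against 35.3, 50.3 and 69.2% at 1 site, with an overlap of less than 5 points (limma adjusted p 0.0795). MIR133B, a muscle microRNA, had 27.1, 71.8 and 96.2% against 88.3, 95.1 and 100% at the 2 strands of 1 CpG. MIR153-2, a neural microRNA inside PTPRN2, had 74.4 ± 11.2% against 48.1 ± 28.6%, with 4 sites higher and 1 lower. None of the genes on these lists passed limma.

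By position, 120 of the 327 microRNA promoter sites lay within 1 kb of the start (36.7%, against 29.1% of all promoter sites), 110 between 1 and 2 kb and 97 between 2 and 3 kb. Sites before the start numbered 158 and sites past it 169, and 4 lay within the microRNA gene itself. Of the sites, 180 had a higher and 147 a lower subfertile mean (55.0% higher, against 50.6% of all promoter sites). Between 2 and 3 kb, 62.9% were higher, against 51.7% of all promoter sites at that distance, but sites of a gene share cows and are not independent. Both strands were present for 67 of the 260 CpG positions.

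Most microRNA genes lay inside another gene. RefSeq places 109 of the 148 within a protein-coding gene, 11 within a long noncoding RNA gene and 28 in neither, and those with a higher mean were 55 of 109, 4 of 11 and 17 of 28. Strands were not compared, so a microRNA gene said to lie inside another gene need not be transcribed with it. Within 10 kb of the start, 85 genes had further deposited sites outside their own promoter rows, 393 in all. Of these, 276 (70.2%) went the same way as the microRNA gene's mean. For MIR2284F it was 28 of 28, for MIR759 13 of 13 and for MIR2406 13 of 15. For MIR2370 it was only 1 of 5, for MIR2358 2 of 11 and for MIR2408 6 of 21, so at these 3 genes most nearby deposited sites went the other way.

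Levels of single cows often stood near 0, 50 or 100%. Of the cow values at microRNA promoter sites, 17.5% were from 0 to 10%, 19.8% from 40 to 60% and 33.4% from 90 to 100%. At all promoter sites these shares were 20.8, 18.9 and 30.05%. At 212 of the 327 sites (64.8%, against 68.7% of all promoter sites) the lowest cow was under 10% and the highest above 80%, here called wide-range sites. In 90 of the 148 genes every site was of this kind, among them MIR2370, MIR2406, MIR2454 and MIR129-1. In 49 genes none was, among them MIR92A-1, MIR2299, MIR2401, MIR2346 and MIR2467. Without the wide-range sites 28 of the 50 microRNA genes left and tested passed limma (56%), and so did 62.6% of all promoter genes left, after a step that keeps sites by how little the cows spread.

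The machinery that makes and uses microRNAs was described from 42 listed genes, each read as the mean of its promoter, exonic, intronic, untranslated and downstream sites. Of these, 16 had a site, 5 with a higher and 11 with a lower mean in subfertile cows, and 0 of 15 tested passed limma (4 at an unadjusted p under 0.05), while 0.121% of all 9,909 genes passed and 40.6% had an unadjusted p under 0.05. The median difference was -24.3 points, against 2.16 points over all 10,795 genes with a site. DROSHA, the nuclear hairpin-cutting enzyme, had 38.9 ± 41.6% against 76.2 ± 21.8% at 1 site (n = 5 in both). XPO5, which exports hairpins from the nucleus, had 69.7 ± 15.4% against 49.5 ± 20.4% over 6 sites. Among the Argonaute genes, AGO3 had 40.8 ± 19.9% against 65.4 ± 18.1% over 5 sites. AGO4 was listed at 0 in every subfertile cow and had 24.0 ± 39.6% in fertile cows over 3 sites. That fertile mean came from fertile cow 4 (50.2%) and fertile cow 6 (93.6%), and the other fertile cows were also at 0.

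The TNRC6 proteins bind Argonautes and bring in the silencing complex, and their genes differed in direction. TNRC6A had 96.7 ± 6.25% against 63.4 ± 30.7% over 3 sites, TNRC6C 56.3 ± 20.3% against 84.2 ± 20.4% over 5 sites. TNRC6B had a difference of -2.42 points over 2 sites. CNOT1, the scaffold of the deadenylase complex, had 56.1 ± 22.7% against 85.8 ± 8.96% at its 8 sites, with a limma adjusted p of 0.0790. PAN3, of another deadenylase, had a difference of -32.3 points over 2 sites. ZSWIM8, part of the ligase that removes Argonautes during target-directed microRNA decay, had 49.0 ± 44.8% against 89.6 ± 17.5% at 1 site. In the genes with the most sites the differences between the groups' gene means were small. Each site was selected for an absolute difference above 25 points, so such means say little about single sites. The directions of those sites were not counted. DIS3L2, an exonuclease gene, had 40.6 ± 2.44% against 53.0 ± 8.20% over 32 sites, SND1 68.3 ± 7.88% against 64.7 ± 3.70% over 24, and ADARB1 62.6 ± 4.10% against 56.0 ± 8.28% over 18.

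Markers of blood cell types were read the same way. Of 38 listed markers of T, B and natural killer cells, monocytes, neutrophils, red cells and platelets, 15 had a site, 7 with a higher and 8 with a lower mean, and 0 of 13 tested passed limma (7 at an unadjusted p under 0.05), beside 0.121% and 40.6% of all genes. None of the listed monocyte markers had a site. Groups did not overlap in 2 of the 15, against 3.5% of all 10,795 genes with a site. These were the neutrophil gene MPO, with 51.7 ± 27.1% against 87.3 ± 6.84%, and the natural killer gene NKG7, with 78.0 ± 6.14% against 38.6 ± 21.5%, at 1 site each. Markers of 1 cell type did not go one way. Beside NKG7, NCR1 had a difference of 15.9 points, while PRF1 (-33.6 points), GZMB (-37.6 points) and KLRD1 (-5.94 points) were lower in subfertile cows. Beside MPO, the neutrophil gene CXCR2 was higher, by 24.7 points. The part of cell mixture in the microRNA values was not tested.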

How the data were processed

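Enzymatically converted whole blood DNA of 12 cows was sequenced, per the labels' protocols. Per the submitters' processing notes, which give no roles, the tools were Bismark, DRAGEN, fastp 0.23.1 and ChIPseeker 1.32.1, and the genome build was ARS-UCD1.2. For every cytosine the deposited table gives each cow's percent of methylated calls, with each group's mean percent, a p-value and a q-value by the authors, per the file headers. It also holds the authors' difference in percentage points, treated here as a deposited score because its weighting is not given. Which tool ran their test, and with what read minimum, is not stated. No read counts are held, so the depth and precision of each value are unknown. A C-to-T sequence difference between cows would read as an unmethylated cytosine in this chemistry, and none was filtered here.

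MicroRNA genes were taken by symbol from promoter rows on numbered autosomes, and their sites were averaged per cow without weights. The test was limma (version 3.58.1, R 4.3.3) with a group term alone, on the log2 ratio of methylated to unmethylated percent after adding 5 points to both. Benjamini-Hochberg adjustment ran over all genes with at least 1 promoter site and a value in all 12 cows. Named are genes with non-overlapping groups, the 10 largest differences each way, genes of at least 3 sites, and members of the microRNA lists. Genes outside this rule (MIR370, MIR154C, MIR544A, MIR10172, MIR340, MIR2297, MIR2285J-2, MIR2285O-2, MIR2285C and MIR1843) were picked with their values known. The members and lists were chosen with earlier results of these data known. The genes that hold a microRNA gene come from RefSeq on ARS-UCD2.0, for names only and without regard to strand. The fit was tested on simulated data. Alternatives covered the added points, scale, promoter reach, strand, site minimum, authors' thresholds and each cow left out. Every column of per-cow values was used.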

Additional observations from a re-analysis of the deposited data

Results flagged for a closer look

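In 23 of 115 groups of the named microRNA genes, 1 cow stood far from the others of its group by Dixon's criterion at 95%. Normally distributed values meet that criterion in about 1 group of 20. Cow values here often stood near 0, 50 or 100%, and some genes were named for large differences. The count therefore cannot be set against that rate. Subfertile cow 4 accounts for 7 of the 23 groups. It was lowest in MIR2285AP (50%, the others from 90%), MIR12044 (40%, the others from 95.5%), MIR2408 (0, the others from 47.6%), MIR2454 (46.5%, the others from 95.2%), MIR181A-1 (60%, the others from 94.4%) and MIR129-1 (10%, the others from 43.5%). It was highest in MIR199A-2, at 100% with the next cow at 27.3%.

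Other subfertile cows stood apart in MIR2370 (cow 2 at 45.6%, the others from 83.3%), MIR2284S (cow 1 at 42.2%), MIR451 (cow 5 at 81.8%), MIR379 (cow 5 at 0), MIR2467 (cow 1 at 89.6%), MIR2351 (cow 5 at 95.6%), MIR2453 (cow 1 at 100%, the next at 25%), MIR6501 (cow 2 at 93.3%) and MIR30A (cow 2 at 35.7%, all others at 0). In fertile cows it was MIR2358 (cow 3 at 45.5%, all others at 0), MIR7864 (cow 3 at 95.8%), MIR2301 (cow 6 at 65.7%), MIR2467 (cow 3 at 49.0%), MIR2285O-5 (cow 1 at 49.0%), MIR2351 (cow 1 at 70.2%) and MIR6501 (cow 4 at 43.8%). In MIR2467, MIR2351 and MIR6501 the cow that stood apart in each group lay toward the other group's level.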

How the results depend on the processing

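No paired analysis was possible because the labels give the cows no shared replicate numbers. The count of microRNA genes that passed limma stayed at 0 with 1 or 10 points added, plain percent values, sites within 1 kb, averaged strands, a deposited difference of at least 35 points, complete sites, or genes with a symbol only. It became 28 of 50 without wide-range sites (56%, against 62.6% of all promoter genes so treated), 24 of 43 with a deposited q below 0.0001 (55.8% against 47.8%), 1 of 69 with at least 2 sites (MIR2408; 1.45% against 1.29%) and 7 of 34 with at least 3 sites (20.6% against 15.7%). The first of these alternatives drops sites by how widely the cows spread and the second keeps sites by the authors' own test of this contrast. The 2 sites of MIR2408 lie on adjacent bases. Leaving out each cow gave 0 to 1, the 1 being MIR2408 without subfertile cow 4 (0.826%, against 0.318% of all promoter genes). That cow was the only subfertile cow that overlapped the fertile cows in MIR2408. Of single sites, 1 passed with plain percent values (0.306%, against 0.479% of all sites) and 72 of 115 without wide-range sites (62.6% against 73%), and leaving out each cow gave 0 to 0.

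The count of genes with non-overlapping groups was 3 of 75 within 1 kb, 4 of 75 at a deposited difference of at least 35 points, 3 of 50 with q below 0.0001, 5 of 69 and 4 of 34 with at least 2 and 3 sites, 5 of 119 with complete sites, and 8 to 13 over the cows left out. The count of genes higher in subfertile cows was 37 of 75 within 1 kb, 34 of 58 without wide-range sites, 37 of 75 at 35 points, 27 of 50 with q below 0.0001, 37 of 69 and 20 of 34 with at least 2 and 3 sites, and 75 to 77 over the cows left out. Fewer genes qualify under each of these settings, except when a cow is left out. For neither count was the share over all promoter genes taken under these settings, so neither can be set against a background.

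Of 1,252 combinations of a named gene and an alternative, 1,201 kept the direction without passing limma, 46 kept it and passed, and 5 reversed. Those that passed did so without wide-range sites, where 62.6% of all promoter genes passed, or with q below 0.0001 (47.8%). The others did so with at least 3 sites (15.7%), at least 2 sites (1.29%) or without subfertile cow 4 (0.318%). Leaving out 1 cow moved the difference by over 1.5 times in 9 of the 58 named genes, each named with its value in the report. MIR2369 was at -45.6 points within 1 kb and with q below 0.0001, and at -3.97 points with averaged strands. Its limma adjusted p with q below 0.0001 was 0.0375, in a fit where 47.8% of all promoter genes passed. MIR11979 was at -30.3 points without wide-range sites (limma adjusted p 0.0364, in a fit where 62.6% of all promoter genes passed). MIR544B-1 was at 40.3 points at a deposited difference of at least 35 points. Each of these genes has sites in both directions. Read depth is unknown, so no value's counting error could be given.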
